A study of Mus musculus with 6 samples.

Results

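Hyaluronan is a long, unsulfated sugar polymer of the extracellular matrix, and the genes described here are those that make it, break it down or bind it. The 10 members were taken by symbol from a list of hyaluronan synthases (Has1, Has2, Has3), genes of hyaluronan breakdown (Cemip, Tmem2, Hyal1, Hyal2) and genes of hyaluronan-binding proteins (Cd44, Hapln1, Hapln3). All 10 were present among the 24421 rows of the authors' deposited table, and all 10 had a base mean (mean normalised read count over libraries) of 10 or more. The members were chosen by function, with the measured fold changes of these libraries already known, among them that of Cemip, so the counts below describe the members and test nothing about them as a set. RNA-seq was made from anterior palate mesenchyme of mouse embryos on a C57BL/6 background at E12.5. The epithelium had been taken off with Dispase II. One group of 3 samples is wildtype, and the other group of 3 is Wnt1Cre;Meis2f/f, in which Cre, switched on in the neural crest, recombines both floxed copies of the homeobox gene Meis2. Cells that do not come from neural crest, such as skeletal muscle, endothelial and macrophage cells, are not a target of this Cre. The wildtype samples are not described as carrying Wnt1Cre, so an effect of the transgene and an effect of the deletion cannot be told apart.

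Hyaluronan is made at the cell surface by the Has enzymes, which add UDP-sugars from the cytosol in turn and push the growing chain out through the membrane. The chain holds water, fills the space between mesenchymal cells and is anchored by receptors such as Cd44 and by link proteins that tie it to proteoglycans such as versican. Breakdown starts outside the cell, where Cemip and its membrane-bound relative Tmem2 act on long chains, and ends in the lysosome with Hyal1 and the exoglycosidases. In the embryonic palate, hyaluronan of the shelf mesenchyme is known for its part in the growth and elevation of the shelves.

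The authors deposited 2 full tables of their own DESeq2 comparison, one of all 6 libraries and one of 4 of them, 2 of each genotype, with no column for a single library. The series' design text instead describes a table as 1 wildtype replicate against 1 mutant replicate. The make-up used here was read from the values, since genes with a single read take 6 distinct base means in one table and 4 in the other. The tables print enough digits that the reads of each library could be worked out from the base means. Base means alone left 1 solution for 9 members and for Meis2, and 3 for Tmem2, of which 1 returned the deposited fold changes and standard errors. Values per library below are these reads divided by the size factor of the library (0.775 to 1.44), in the order a, b, c within a genotype. Library c of each genotype is the one that the 4-library table leaves out, and which numbered replicate a library is was not known. The genotype of a library follows the side on which the authors' fit placed it, and the sides were named from Meis2. Meis2 had 1526, 1695 and 1549 normalised reads in the wildtype libraries and 1250, 1218 and 1378 in the mutant libraries. The groups did not overlap, but since the mutant side is the one with less Meis2 this is no check of the labels, and every direction given here rests on it. For Meis2 the authors' deposited tables (Wald test, DESeq2) give adjusted p 0.0743 with 6 libraries and 0.0213 with 4. The sources used here do not name the floxed exons. Transcripts that lack them could still be counted, and whether they were was not tested. Pearson correlations of log2 normalised reads over 13737 genes ran from 0.983 to 0.990 within the mutant group, from 0.985 to 0.989 within the wildtype group and from 0.973 to 0.986 between genotypes.

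In the authors' deposited table (Wald test of DESeq2, called at adjusted p below 0.05) Cemip rose, Has2 fell and 8 of the 10 members did not pass. Over all genes 2.90% were called in either direction, 1.75% higher and 1.16% lower in the mutant. The same 2 members were called in the 4-library table, where the share over all genes was 2.30%. Among the 10, 6 lay above 0 and 4 below 0, with the same signs in both tables. The median log2 fold change of the members was 0.13 with 6 libraries and 0.11 with 4, against -0.01 and -0.002 over all genes of base mean 10 or more, from the authors' deposited tables. In the reads per library, 2 of the 10 members had groups that did not overlap, 1 in each direction, beside 17.9% of 13737 genes over all, 8.90% higher and 8.96% lower in the mutant.

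**Figure D1:**
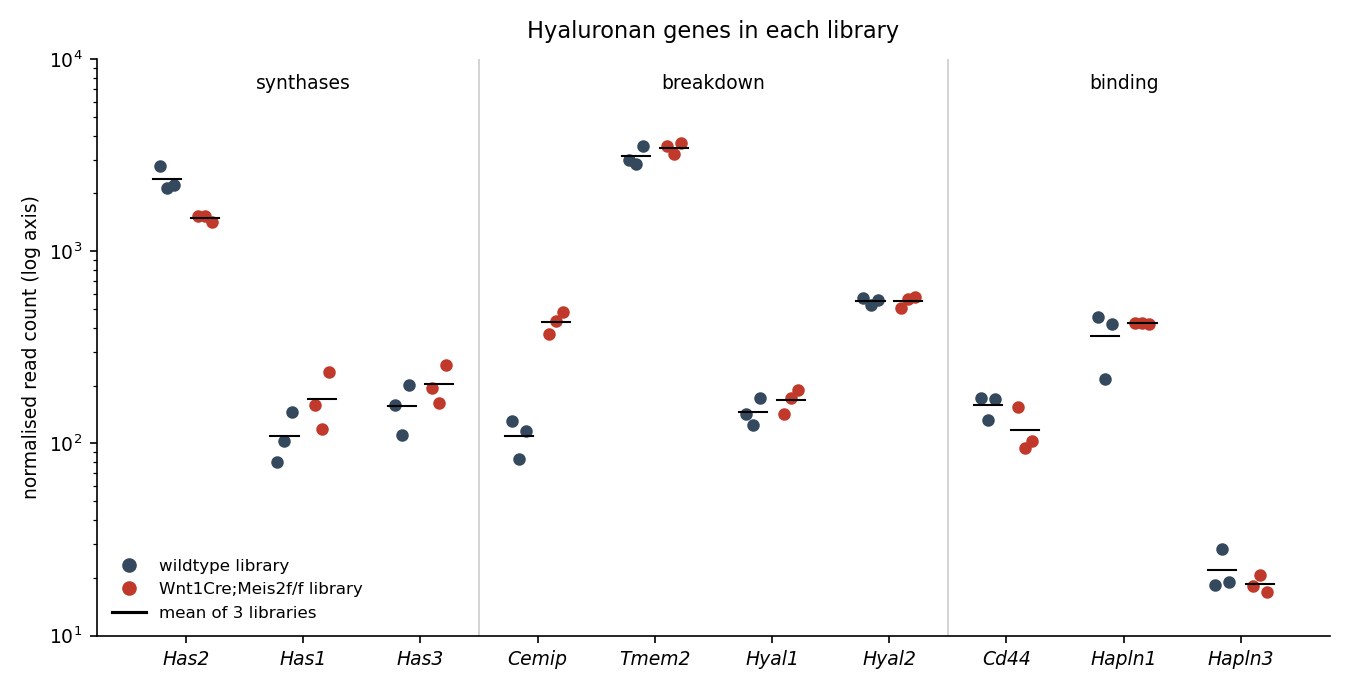
Normalised read count (log axis) of each of the 10 members in each of the 6 libraries, by genotype, with the mean of the 3 libraries as a bar. The groups of Has2 and Cemip do not overlap, and those of the other 8 members do.

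Has2 encodes the main hyaluronan synthase of embryonic mesenchyme. It lies on chromosome 15, 56665627 to 56694539 (GRCm38). The wildtype libraries had 2794, 2130 and 2218 normalised reads and the mutant libraries 1526, 1525 and 1413. Every mutant library lay below every wildtype library, and the lowest wildtype value was 1.40 times the highest mutant value. The mutant libraries differed among themselves by at most 1.08 times and the wildtype libraries by 1.31 times. Per the authors' deposited table Has2 fell by 0.59 in log2 units (SE 0.103, adjusted p 1.76e-06), to 0.666 of the wildtype level. The authors' deposited table of 4 libraries has a fall of nearly the same size, -0.58 (SE 0.103, adjusted p 2.64e-06). These fold changes are shrunken toward 0 by the fit, and the plain ratio of the group means was 0.625. The antisense gene Has2os shares 182 exon bases, or 4.30% of the Has2 exons, on the other strand. For Has2os the authors' deposited table gives a base mean of 18.4 and -0.05 in log2 units (adjusted p 0.947). The sources used here do not say whether reads were counted by strand.

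Has1 and Has3, the other synthases, were both above 0 and passed no test. Has1 lies on chromosome 17, 17843323 to 17855205. It had 79.9, 103 and 145 normalised reads in the wildtype libraries and 158, 119 and 236 in the mutant libraries. The highest wildtype library exceeded the lowest mutant library, so the groups overlapped, and library c was the highest of its genotype on both sides. For Has1 the authors' deposited table gives 0.37 in log2 units (SE 0.149, p 0.0121, adjusted p 0.227), and the plain ratio of group means was 1.56. Has3, on chromosome 8, 106870242 to 106884566, had 158, 111 and 202 normalised reads in the wildtype libraries and 195, 163 and 256 in the mutant libraries. Its groups overlapped in the same way, with library c again the highest of each genotype. For Has3 the authors' deposited table gives 0.25 in log2 units (SE 0.144, adjusted p 0.591). The gene Chtf8, on the other strand, shares 352 exon bases with Has3, or 5.50% of its exons. Chtf8 has many more reads, with 2492 as its base mean in the authors' deposited table.

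The level of a gene can be set beside that of another only per length, here as normalised reads per kilobase of exon in the GENCODE M21 annotation. The exons of all annotated transcripts of a gene were joined for its length, which can exceed that of any single transcript. Orders and shares between genes depend on these lengths. On that scale Has2 was the highest synthase in every library, from 503 to 659 in wildtype and from 334 to 360 in the mutant. Has1 ran from 17.7 to 32.2 in wildtype and from 26.3 to 52.3 in the mutant, and Has3 from 17.4 to 31.7 and from 25.5 to 40.1, so these neighbours in the order were not separated. The summed level of the 3 synthases per kilobase was 702, 543 and 587 in the wildtype libraries and 426, 412 and 426 in the mutant libraries. Its mean in the mutant was 0.690 of that in wildtype, somewhat nearer to 1 than the ratio for Has2 alone. Has2 made up 89.1% to 94.0% of the summed level in wildtype and 78.3% to 87.4% in the mutant. The share of Has1 was 2.52% to 5.48% in wildtype and 6.38% to 12.3% in the mutant, and that of Has3 was 3.20% to 5.40% and 6.19% to 9.42%. These shares are descriptions and were not tested. Each share also moves when another synthase does, so a higher share of Has1 is not by itself a higher level of Has1.

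**Figure D2:**
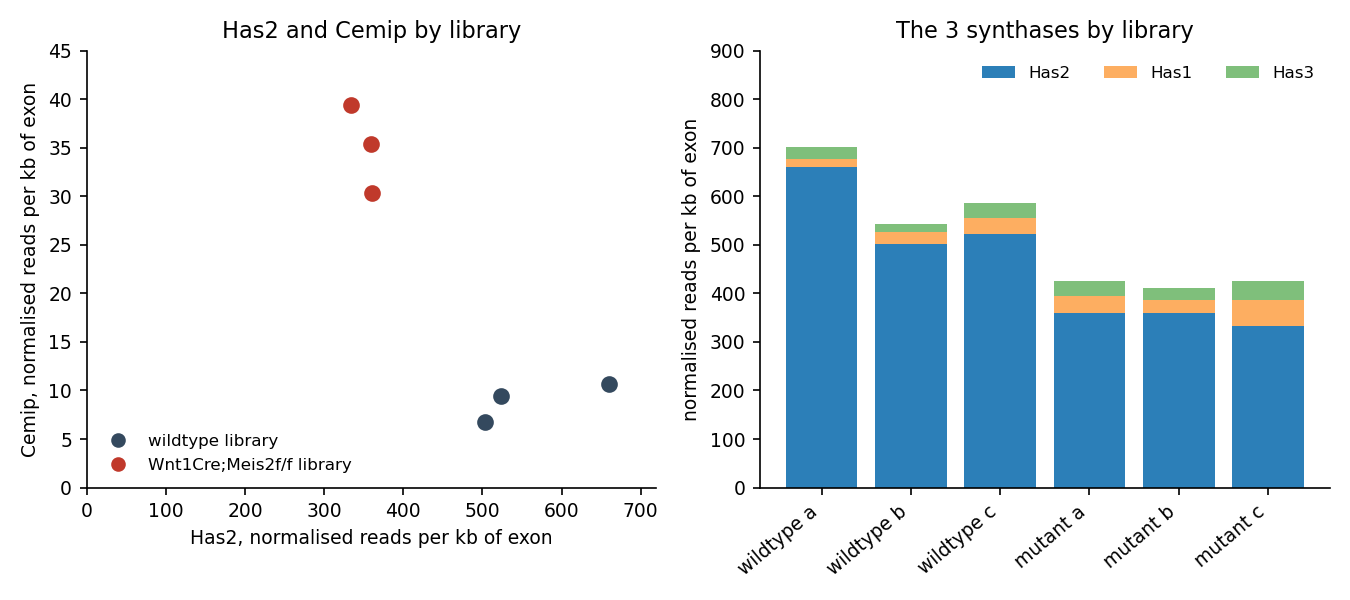
Left, normalised reads per kilobase of exon of Cemip against Has2 in each library. Right, stacked normalised reads per kilobase of the 3 synthases in each library; letters name libraries and are not replicate numbers. Mutant libraries have a Has2 level of 334 to 360 and a Cemip level of 30.3 to 39.5, wildtype libraries 503 to 659 and 6.76 to 10.7.

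Cemip encodes a protein that binds hyaluronan and is needed for the depolymerisation of long chains by fibroblasts. It lies on chromosome 7, 83932857 to 84086502. The 250 bases before its RefSeq start site (chr7:84086506-84086755, GRCm38.p6, minus strand) are printed 5′ to 3′ because Cemip has the largest fold change of the members, with a match to TATAAA in capitals.
Cemip: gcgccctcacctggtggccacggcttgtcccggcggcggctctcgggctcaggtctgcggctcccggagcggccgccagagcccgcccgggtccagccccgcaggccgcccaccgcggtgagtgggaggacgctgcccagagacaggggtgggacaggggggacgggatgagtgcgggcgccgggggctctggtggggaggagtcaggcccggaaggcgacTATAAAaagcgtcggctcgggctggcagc
This match lies 29 to 24 bases before the start site, and 12.4% of 32851 RefSeq promoter windows of that length hold TATAAA on either strand. Of the 7 members with an entry 2 hold it, Cemip and Hapln3, the latter 239 to 234 bases before its start site. The letters TGACAG, a core sequence that Meis proteins are known to bind, are not in this window on either strand. They are in the windows of Hyal1 and Hapln3, which is 2 of the 7 members with an entry, and in 15.9% of all windows. Has2, Has3 and Tmem2 had no entry in the promoter table. A match in these letters describes the sequence and shows no binding.

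Cemip had 131, 82.6 and 116 normalised reads in the wildtype libraries and 371, 433 and 483 in the mutant libraries. These rest on 164, 64 and 98 reads in wildtype and 533, 354 and 513 in the mutant. The lowest mutant library was 2.83 times the highest wildtype library. Per the authors' deposited table Cemip rose 2.69-fold, or by 1.43 in log2 units (SE 0.132, adjusted p 7.66e-24). The authors' deposited table of 4 libraries has 1.16 (SE 0.139, adjusted p 7.42e-14), and the libraries left out there include the mutant library with the most Cemip. The plain ratio of the group means was 3.90 over 6 libraries, a log2 ratio of 1.96, and the log2 ratio over the 4 libraries was 1.91. Between the tables the plain log2 ratio of Cemip therefore moved by less than the moderated one. Leaving out each library in turn gave plain ratios from 3.47 to 4.32. By p, Cemip stood at place 5 and Has2 at place 93 among all genes of the 6-library table.

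**Figure D3:**
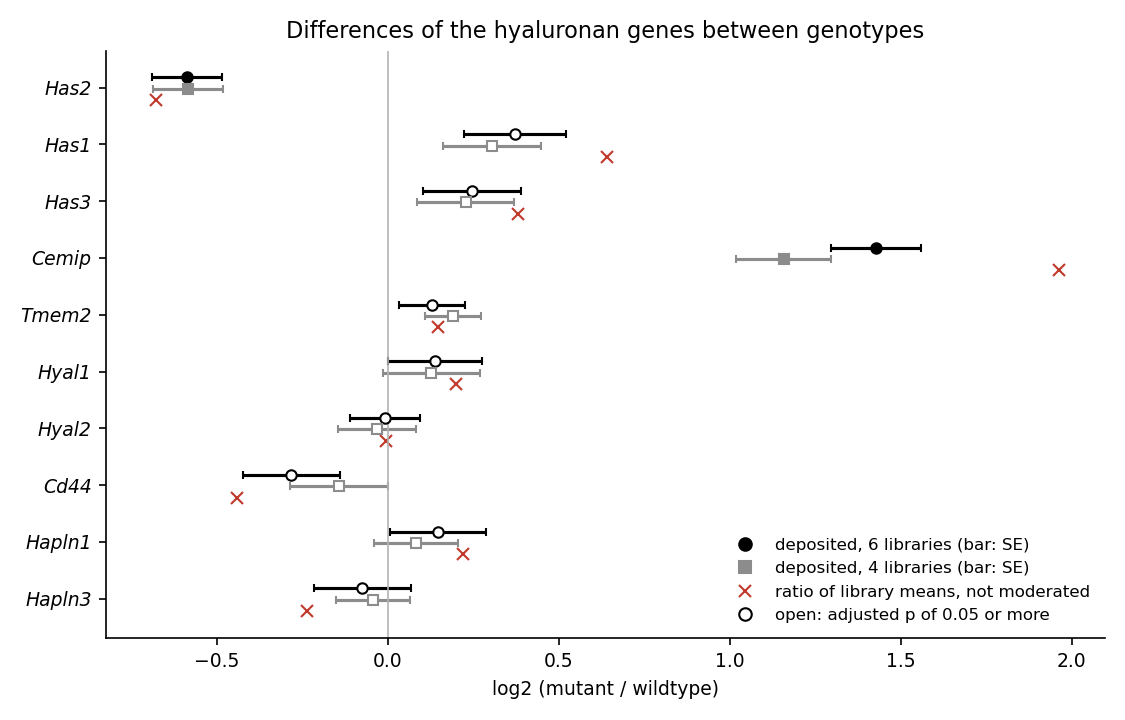
Log2 ratio of mutant over wildtype for the 10 members. Circles and squares are the deposited moderated log2 fold changes with 6 and with 4 libraries (bars, SE; filled, adjusted p under 0.05), and crosses are plain log2 ratios of the library means, which for Cemip reach 1.96 against a deposited 1.43.

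Tmem2, also named Cemip2, encodes a cell surface hyaluronidase related to Cemip (chromosome 19, 21778342 to 21858360). It had 2995, 2838 and 3541 normalised reads in the wildtype libraries and 3517, 3193 and 3669 in the mutant libraries. Wildtype library c lay inside the mutant range, so the groups overlapped. For Tmem2 the authors' deposited table gives 0.13 in log2 units (SE 0.097, adjusted p 0.740). Without the c libraries the authors' deposited table gives 0.19 (SE 0.082, p 0.02, adjusted p 0.321).

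Hyal1 encodes the lysosomal hyaluronidase (chromosome 9, 107576927 to 107581710). It had 142, 125 and 171 normalised reads in the wildtype libraries and 142, 172 and 190 in the mutant libraries, which overlapped. For Hyal1 the authors' deposited table gives 0.14 in log2 units (SE 0.136, adjusted p 0.830). The gene Naa80 on the same strand shares 50.8% of the Hyal1 exon bases and Hyal3 shares 4.20%, so how the reads were split among these genes is uncertain. Hyal2, which encodes a membrane-anchored hyaluronidase (chromosome 9, 107567945 to 107572779), had the fold change nearest to 0. It had 574, 527 and 555 normalised reads in the wildtype libraries and 506, 565 and 578 in the mutant libraries. For Hyal2 the authors' deposited table gives -0.009 in log2 units (SE 0.102, adjusted p 0.990).

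Per kilobase, Tmem2 was the highest of the breakdown genes in every library, from 333 to 416 in wildtype and from 375 to 431 in the mutant, followed by Hyal2 from 160 to 174 and from 154 to 175. Hyal1 ran from 33.2 to 45.4 in wildtype and from 37.6 to 50.3 in the mutant. Cemip was the lowest of these genes in every library, at 10.7, 6.76 and 9.48 in wildtype and 30.3, 35.4 and 39.5 in the mutant. The mutant ranges of Cemip and Hyal1 met only between different libraries, since Hyal1 stood at 37.6, 45.65 and 50.3 in the same libraries. Cemip made up 1.27% to 1.87% of the summed level of the breakdown genes in wildtype and 4.78% to 5.67% in the mutant. The summed level itself was 574, 533 and 639 in the wildtype libraries and 634, 627 and 696 in the mutant libraries, and these overlapped. Has2 stood above Cemip by 55.2 to 74.4 times in the wildtype libraries and by 8.45 to 11.9 times in the mutant libraries, per kilobase. This ratio joins the 2 called members and adds no evidence beyond them.

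Among the binding proteins no member passed the test. Cd44 encodes the main cell surface receptor for hyaluronan (chromosome 2, 102811141 to 102901665). It had 173, 133 and 170 normalised reads in the wildtype libraries and 154, 94.2 and 103 in the mutant libraries. Mutant library a lay inside the wildtype range and the other mutant libraries lay below it. For Cd44 the authors' deposited tables give -0.28 in log2 units (SE 0.143, p 0.049, adjusted p 0.471) with 6 libraries and -0.14 (SE 0.144, adjusted p 0.970) with 4.

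Hapln1, a link protein that ties hyaluronan to proteoglycans (chromosome 13, 89539796 to 89611652), had 454, 217 and 418 normalised reads in the wildtype libraries and 425, 424 and 419 in the mutant libraries. The mutant libraries differed by at most 1.02 times and the wildtype libraries by 2.09 times, with wildtype library b the low one. That library also had the fewest reads of this gene, 168, and the smallest size factor. For Hapln1 the authors' deposited table gives 0.15 in log2 units (SE 0.139, adjusted p 0.821). Hapln3, another link protein (chromosome 7, 79115102 to 79131018), was the weakest member, with 16 to 26 reads a library. It had 18.4, 28.4 and 18.9 normalised reads in the wildtype libraries and 18.1, 20.8 and 16.9 in the mutant libraries. For Hapln3 the authors' deposited table gives -0.07 in log2 units (SE 0.141, adjusted p 0.933). No pair of the 45 pairs of members shares a stretch of 50 bases in GENCODE transcripts.

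The other genes of the pathway were taken from 5 lists of 53 genes, of which 39 had a base mean of 10 or more. In the authors' deposited table (Wald test, DESeq2) Adamts5 rose, no gene fell and the others did not pass. That is 1 call among 39 genes, beside 2.90% over all genes, and the lists were not tested as a set. The median log2 fold change of the 39 was 0.02. Adamts5 encodes a protease that cuts versican and aggrecan. It had 289, 285 and 300.4 normalised reads in the wildtype libraries and 460, 511 and 502 in the mutant libraries. The wildtype libraries lay close together and all mutant libraries lay well above them. Per the authors' deposited tables Adamts5 rose by 0.64 in log2 units (SE 0.108, adjusted p 6.64e-07) with 6 libraries and by 0.57 (adjusted p 3.49e-04) with 4.

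Versican (Vcan), the large proteoglycan that binds hyaluronan in loose mesenchyme, had a base mean of 52449, the highest of its list. For Vcan the authors' deposited table gives 0.28 in log2 units (SE 0.098, adjusted p 0.120). The authors' deposited table of 4 libraries has nearly the same value, 0.27, with an SE of 0.069, and there it was called (adjusted p 0.00799). Reads of Vcan per library were not worked out, since its base mean is above the range solved.

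Genes that supply the UDP-sugars were mostly a little below 0. Of 11 measured genes in the authors' deposited table (Wald test, DESeq2) 0 were called, 1 had an unadjusted p below 0.05 and 9 lay below 0. Over all genes of base mean 10 or more, 10.7% had an unadjusted p below 0.05. The median log2 fold change of the 11 genes was -0.12, with a range from -0.25 to 0.08. For Gfpt1, the first enzyme of the hexosamine pathway and the gene of highest base mean in this list, the authors' deposited table gives -0.12 in log2 units (adjusted p 0.721).

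Other hyaluronidases and lysosomal enzymes gave 0 calls among 4 measured genes in the authors' deposited table (Wald test, DESeq2), and 0 at an unadjusted p below 0.05. Their log2 fold changes ran from 0.03 to 0.06, and the gene of highest base mean, Hexa, a subunit of beta-hexosaminidase, stood at 0.06 (adjusted p 0.923). Hyal4, Hyal5 and Hyal6 are listed at a base mean of 0. Among 11 measured receptors and other binding proteins in the authors' deposited table (Wald test, DESeq2) 0 were called and 1 had an unadjusted p below 0.05, with a median of 0.01 and a range from -0.25 to 0.19. For Stab1, a scavenger receptor for hyaluronan found on macrophages and some endothelium, the authors' deposited table gives 0.16 in log2 units (adjusted p 0.775). Apart from Adamts5, the 9 other measured genes of heavy chains and matrix assembly were not called. With Adamts5 counted, 4 of the 10 had an unadjusted p below 0.05, beside 10.7% of all genes of base mean 10 or more, in the authors' deposited table. For the one of highest base mean, tenascin C (Tnc), the authors' deposited table gives 0.05 in log2 units (adjusted p 0.913).

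**Figure D4:**
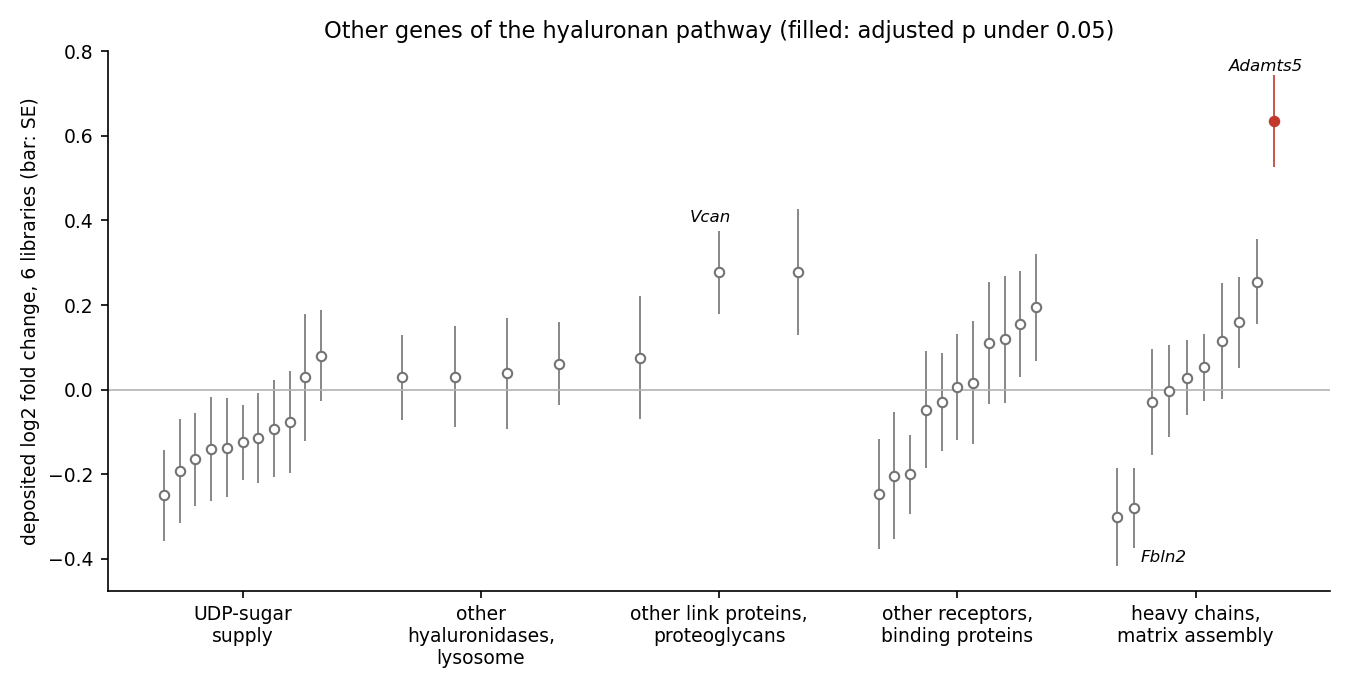
Deposited log2 fold change with 6 libraries (bars, SE) of the 39 measured genes in the 5 other lists of the hyaluronan pathway, ordered by value within a list. Adamts5 (0.64) is the only filled point; Vcan, at 0.28, is called with 4 libraries only.

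By the pair of log2 fold changes in the 2 tables, the 3 genes nearest to Cemip among those of base mean 10 or more were Prokr2, Cilp and Brinp3. Their distances, on the log2 scale over both tables, were 0.0892, 0.105 and 0.111. Prokr2 had 148, 130 and 160 normalised reads in the wildtype libraries and 451, 484 and 479 in the mutant libraries, a range much like that of Cemip. Cilp had 62.3, 68.4 and 78.1 in wildtype and 224, 289 and 278 in the mutant. Brinp3 had 51.1, 41.3 and 72.2 in wildtype and 257, 193 and 221 in the mutant.

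Markers of the tissue and of other cell types were read in the same libraries, since the members are also made by cells other than mesenchyme. In bulk RNA, fewer cells of a type and less RNA per cell cannot be told apart. In the authors' deposited table (Wald test, DESeq2) 7 of 10 muscle markers rose, among them Ttn (0.55 in log2 units) and Actc1 (0.55). The sum of the 9 muscle markers with reads per library was 840 to 1294 in wildtype and 2046 to 6321 in the mutant, where library b was far above the others. In the same comparison of the authors' deposited table (Wald test, DESeq2) 3 of 9 macrophage markers rose, among them Mrc1 (0.49) and Csf1r (0.57). Of the 9, 7 lay above 0 and 2 below, Cd68 and C1qb, both at -0.05 and named after their values were seen. The macrophage sum was 587.5 to 744 in wildtype and 930 to 1069 in the mutant. Mrc1 and Csf1r have the highest base means of this list (338 and 215) and weigh most in this sum. Neuron markers fell in 4 of 7 measured cases in the authors' deposited table (Wald test, DESeq2), among them Dcx (-0.66) and Tubb3 (-0.68). The neuron sum was 636.5 to 1062 in wildtype and 408 to 457 in the mutant. With 4 libraries the calls were 2 for muscle, 2 for macrophages and 1 for neurons in the authors' deposited table. Over all genes 2.90% were called with 6 libraries, 1.75% higher and 1.16% lower, and 2.30% with 4. The marker lists were not tested as sets. No muscle or macrophage marker was at a base mean of 0, and the part of these shifts in the rise of Cemip and the fall of Has2 was not tested.

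Among 6 measured Schwann and glial markers in the authors' deposited table (Wald test, DESeq2) Ngfr alone fell (-0.38), and with 4 libraries it was not called (adjusted p 0.175). The sums were 1226 to 1624 in wildtype and 1066 to 1195 in the mutant. For this and the lists below, the share of all genes called lower was 1.16% with 6 libraries and 0.990% with 4. The share called higher was 1.75% and 1.31%. The 10 epithelial and 7 measured endothelial markers gave 0 calls in the authors' deposited table (Wald test, DESeq2), with 1 and 0 at an unadjusted p below 0.05 and medians of 0.04 and 0.03. Over all genes of base mean 10 or more, 10.7% had an unadjusted p below 0.05. Epithelial sums were 1166 to 1780 in wildtype and 1322 to 1725 in the mutant, so RNA of epithelium was present in both groups after its removal. Endothelial sums were 4965 to 6245 in wildtype and 5277 to 6198 in the mutant. Cartilage markers fell in 2 of 5 measured cases in the authors' deposited table (Wald test, DESeq2), Col9a1 (-0.78) and Matn4 (-0.69), and 3 were called lower with 4 libraries. In the authors' deposited table of 6 libraries (Wald test, DESeq2) Acan lay above 0, at 0.28 (adjusted p 0.532). Col2a1 stood there at -0.10 (adjusted p 0.838). Both were named after their values were seen. The cartilage sum was 5468 to 6394 in wildtype and 4171 to 5097 in the mutant. Col2a1, whose groups overlapped, has the highest base mean of this list (3178) and weighs most in this sum. Palatal mesenchyme markers fell in 3 of 8 cases in the authors' deposited table (Wald test, DESeq2), among them Prrx1 (-0.31) and Twist1 (-0.45), while 2 lay above 0. The largest fall of the list, called in the same Wald test, was that of Shox2 (-0.90, adjusted p 4.36e-10), named after its values were seen. The authors' deposited table of 4 libraries calls 3 lower and 1 higher. The one called higher there is Pdgfra, named after its values were seen, at 0.23 (adjusted p 0.0473), against 0.20 (adjusted p 0.335) with 6 libraries. Reads per library were worked out for 5 of the 8, and their sum was 4738 to 7842 in wildtype and 3744 to 4319 in the mutant. That sum leaves out the markers of highest base mean, Col3a1 (50618), Pdgfra (16535) and Prrx1 (10660), so it does not stand for the whole list. Col3a1, also named after its values were seen, stands at -0.10 (adjusted p 0.778) in the authors' deposited table. The part of these shifts in the fall of Has2, which mesenchyme and cartilage precursors both express, was not tested.

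**Figure D5:**
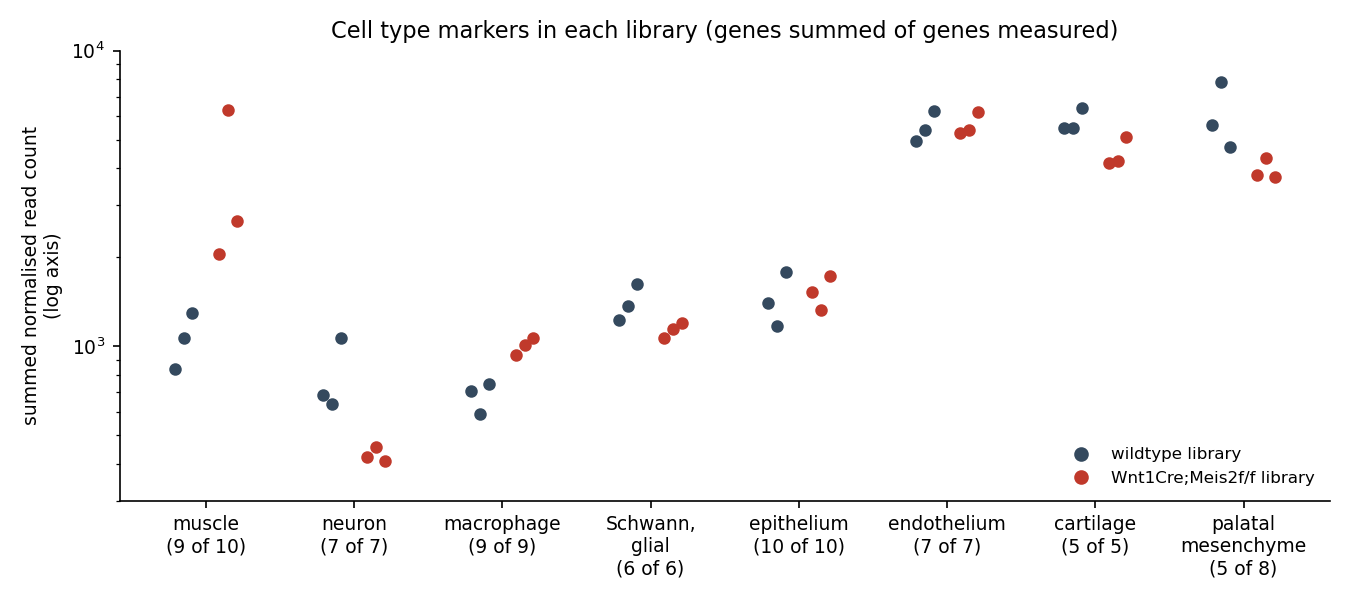
Summed normalised read count (log axis), by genotype and library, of the markers in each list whose reads per library were worked out (9 of 10 for muscle, without Ttn, and 5 of 8 for palatal mesenchyme, without Col3a1, Pdgfra and Prrx1). Muscle and macrophage sums are higher, and neuron, Schwann and cartilage sums and that of the 5 mesenchyme markers lower, in every mutant library than in every wildtype library; epithelial and endothelial sums overlap.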

How the data were processed

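RNA was purified from 3 wildtype and 3 Wnt1Cre;Meis2f/f samples, reverse transcribed and amplified, and made into TruSeq v2 libraries, per the labels' protocols. HISAT2, featureCounts and DESeq2 were run by the authors, with the builds GRCm38 and mm10, per the submitters' processing notes. No version or strand setting is given in the sources used here. The deposited tables hold, per gene, the authors' base mean (a signal: counts over size factors, averaged), a shrunken log2 fold change with its standard error, the Wald score, and a p-value with its adjusted p-value. The table left over repeats rows of the first and was not used. Although the labels call the samples biological replicates, p-values measure only the spread between these samples.

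A gene with a single read has a base mean fixed by its library's size factor. These levels gave 6 size factors in one table and 4 in the other, and the sign of such genes' fold changes gave the genotype side. Reads per library were found as the whole numbers that give both base means at 15 and 10 significant digits (Python 3.11.15, numba 0.67.0). Under a base mean of 600, all 9266 genes had 1 solution. Above 600, up to 3400, 269 of 4472 genes had several, and the one that returned both deposited fits (a negative binomial model with a normal prior on the fold change) within 1e-04 was kept, so that 13737 of 13738 genes were solved. On simulated reads 994 of 994 genes under 600 and 100 of 100 above it came out right. The simulation took the same size factors, prior and genotype sides as the solution, and a fixed dispersion. It therefore could not show an error in these. No test was run on these reads. Totals per library are not known.

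A gene was called at an adjusted p under 0.05. The members and lists were chosen with earlier results of these data known. Named genes were the 10 members and Meis2, pathway genes called in either table and the gene of highest base mean in each pathway list, the 2 called genes of highest base mean in each marker list, and the 3 genes nearest to Cemip. Alternatives were the 4-library table, other thresholds, other sets of genes for the adjustment, centring, plain ratios and, added after the data were seen, leaving out each library. Sequences are RefSeq's, GRCm38.p6, with 7 of 10 members matched. Protein sequences were not used here.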

Additional observations from a re-analysis of the deposited data

How the results depend on the processing

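The call and direction of Cemip and Has2 were the same under every alternative run: the 4-library table, thresholds of 0.1 and 0.01, and adjustment over genes of base mean 10 or more or over all genes with a p. The count of 2 called members did not change under any of these. The plain log2 ratio of Cemip was 1.96, against 1.43 as deposited, since the plain ratio has no shrinkage. Leaving out each library in turn moved the plain log2 ratio of Cemip from 1.80 to 2.11 and of Has2 from -0.75 to -0.55. Of the 10 members 8 kept the sign of their plain log2 ratio without each of the 6 libraries, and 2 did not: Hapln1 ran from -0.04 to 0.41 and Hyal2 from -0.04 to 0.05. Called pathway genes went from 1 to 2 with the 4-library table, which added Vcan, and to 2 at an adjusted p under 0.1, which added Fbln2 (log2 fold change -0.28, adjusted p 0.0816, named after its value was seen, in the authors' deposited table). Called markers went from 20 to 12 with the 4-library table and to 12 at an adjusted p under 0.01. No paired analysis was possible because the replicate number of each library in the tables is not known. Hapln3 had the fewest reads of the members, 16 to 26 a library, and how depth limits its test was not tested.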
